A study of Mus musculus with 19 samples.

Results

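The Zfp genes are the mouse genes named zinc finger protein and a number. Of 339 listed genes whose symbol is Zfp with a number and at most 1 further letter, 336 were described here, out of 14173 genes listed for single blastocysts; the other 3, Zfp57, Zfp445 and Zfp42, were left out by the rule that chose the members. The study compared 9 Padi6-mutant blastocysts with 10 Control blastocysts (Mus musculus, 1 polyadenylated RNA library per embryo). The mutant embryos came, per the series text, from oocytes that carry the Padi6 change P620A, and Padi6 encodes a protein of the egg's subcortical maternal complex. This change replaces 1 amino acid, so the level of Padi6 RNA is no check of the labels. The strain, litter and sex of the embryos are not given in the sources used here, so that p-values measure the spread between embryos as if they were independent. Libraries are called by the number in their labels, Control 1 to 10 and Padi6-mutant 2 to 10.

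Most Zfp proteins bind DNA through arrays of C2H2 zinc fingers, small folds in which 2 cysteines and 2 histidines hold a zinc ion, and each finger contacts a few bases. Many also carry a KRAB box, a short domain that recruits the corepressor Trim28 and, through it, the H3K9 methyltransferase Setdb1 and HP1 proteins. KRAB zinc-finger proteins are best known for silencing transposable elements and for guarding imprints in the early embryo, and their genes lie in clusters that have grown by duplication. The name also covers proteins with other work, such as Zfp36, which destabilises mRNAs, Zfp598, which marks collided ribosomes, and Zfp207, which acts at kinetochores.

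The windows before the start sites of 4 members are shown because these members had among the largest rises (Zfp938, Zfp949) and falls (Zfp239, Zfp219) described below; they were chosen with those values known. Each is 250 bases upstream of the first start listed by RefSeq on GRCm38.p6, on the gene's own strand, at chr10:82241281-82241530 (Zfp938, minus strand), chr9:88547770-88548019 (Zfp949, plus strand), chr6:117861774-117862023 (Zfp239, plus strand) and chr14:52020734-52020983 (Zfp219, minus strand). Capitals mark matches to 8 motifs searched on both strands.
Zfp938: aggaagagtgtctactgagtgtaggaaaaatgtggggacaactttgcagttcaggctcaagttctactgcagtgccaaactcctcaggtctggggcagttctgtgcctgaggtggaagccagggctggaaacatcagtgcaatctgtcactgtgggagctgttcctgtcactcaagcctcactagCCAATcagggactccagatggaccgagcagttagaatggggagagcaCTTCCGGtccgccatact
Zfp949: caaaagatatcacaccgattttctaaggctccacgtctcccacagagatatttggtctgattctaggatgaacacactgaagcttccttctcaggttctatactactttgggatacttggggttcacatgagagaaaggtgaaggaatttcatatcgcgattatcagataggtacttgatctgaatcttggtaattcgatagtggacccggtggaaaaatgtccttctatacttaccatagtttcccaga
Zfp239: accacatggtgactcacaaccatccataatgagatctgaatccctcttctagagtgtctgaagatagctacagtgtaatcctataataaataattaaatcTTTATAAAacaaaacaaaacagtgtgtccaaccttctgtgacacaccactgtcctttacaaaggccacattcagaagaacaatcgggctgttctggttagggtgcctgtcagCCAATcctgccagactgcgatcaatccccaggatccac
Zfp219: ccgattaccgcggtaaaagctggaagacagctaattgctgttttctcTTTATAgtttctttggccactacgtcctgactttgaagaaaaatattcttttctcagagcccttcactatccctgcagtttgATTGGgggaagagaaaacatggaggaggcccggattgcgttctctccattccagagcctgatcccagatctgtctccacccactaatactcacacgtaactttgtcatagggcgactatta
The motifs were the CCAAT box (its 5 letters), the GC box (GGGCGG), the TATA box (TATAAA), the ETS motif (CCGGAAG), the CRE (TGACGTCA), the YY1 motif (AAGATGGC), the E-box (CACGTG) and the ZNF143 motif (ACTACAA). The Zfp938 window held a CCAAT box and an ETS motif, the Zfp239 and Zfp219 windows held CCAAT and TATA boxes, and the Zfp949 window held none of the 8. RefSeq windows of 300 bases (250 before and 50 after the start) were found for 268 members, 323 windows in all. The CCAAT box was in 51.4% of these windows and in 38.2% of the 12211 windows of all listed genes, and the GC box was in 46.1% and 61.9%. Zfp windows held a median of 14 CpGs against 20 over all listed genes. Windows of members with a KRAB box held 10 and those of members without one 21. These matches are a description of letters, and no binding was measured.

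No gene in the list had fewer than 9 libraries above 0, so being a member itself required expression. Values are log2(scaled count + 1), with each library scaled by the authors to the same upper quartile. They are not divided by transcript length, so levels of different genes are not compared. On this scale the member means over 19 embryos ran from 3.21 to 14.2 with a median of 9.11, beside a median of 9.39 over all genes, and 309 of 336 members were above 0 in every library. The mutant libraries had more genes at 0 (113 to 596, against 30 to 247 in Control) and more members at 0 (1 to 9, against 0 to 3). For 13 libraries the steps between scaled counts gave the total count (M, mega). It was 27.9 M to 46.2 M in 5 Control and 12.1 M to 30.2 M in 8 Padi6-mutant libraries, while the labels state a mean of 4.2 M reads. Totals were taken only where counts had been scaled up. Libraries without one (Control 1, 2, 3, 4 and 7 and Padi6-mutant 7) may thus differ in depth from these. Their scaled totals were 36.3 M to 40.8 M, and where counts were not scaled up the depth was about that or higher. The part of depth in the group differences was not tested. All 6 trophectoderm markers were listed and none passed the test. Of 4 listed inner cell mass markers Pou5f1 and Klf2 were lower in the mutant. Sox2 and Nanog were not called (log2 change, mutant minus Control, -0.93 and 0.007). Of 5 primitive endoderm markers Gata6, Pdgfra and Sox17 were lower, while Gata4 (-3.05) and Dab2 (0.23) were not called. Over all genes 12% were lower and 14.6% higher. The part of these markers in the results below was not tested. Of 6 cumulus markers only Amhr2 was listed, and none of 6 oocyte markers was. RNA of a whole embryo does not tell fewer cells of a type from less RNA per cell.

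A smaller share of Zfp genes than of all genes passed the test, and those that passed mostly fell. In limma's moderated test with Benjamini-Hochberg adjustment over all genes (adjusted p below 0.05), 53 of 336 members (15.8%) were called, against a background of 26.6% of all genes. Only 10 members rose (2.98%, with 14.6% of all genes), while 43 fell (12.8%, with 12% of all genes). Among other genes of like level, meaning those in the same of 10 equal bins of mean level, 13.5% were higher and 11.5% lower. The low share of members thus lay in the rises, and the share of falls was near the background. At an unadjusted p under 0.05 there were 93 members and 5460 genes.

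The family as a whole sat slightly lower in Padi6-mutant embryos. The median log2 fold change (mutant minus Control) was -0.26 over the members, with quartiles of -0.66 and 0.15, and -0.10 over all genes, with quartiles of -0.55 and 0.49. Of the members, 223 (66.4%) had a value below 0, as had 55.3% of all genes. Measured against the median of other genes in the same level bin, the median member was shifted by -0.17, and 203 members were below their reference. The gap was widest at low levels. In the lowest level bin, which holds 8 members, the medians were -0.92 for members and -0.14 for other genes. In level bins 2 and 3 the member medians were -0.66 and -0.50, where other genes had medians of 0.02 and -0.004. In level bins 5 and 7 members were not below other genes (-0.16 and -0.13, against -0.16 and -0.17). Smaller gaps stood in level bins 4, 6, 8, 9 and 10, with members at -0.25, -0.30, -0.25, -0.18 and -0.27. Other genes there had 0.006, -0.13, -0.15, -0.11 and -0.008. Among genes above the median level alone the shift was -0.04, and against genes of like level and like transcript length it was -0.07.

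**Figure D1:**
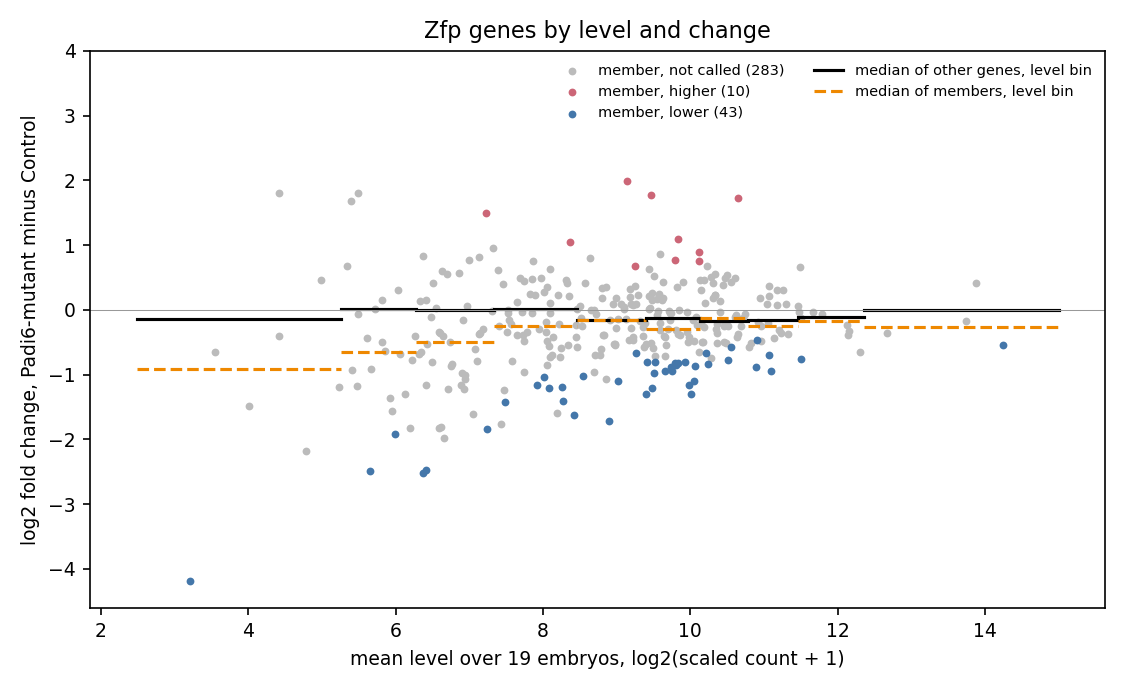
Log2 fold change (Padi6-mutant minus Control, vertical axis) of each of 336 Zfp genes against its mean level over 19 embryos (horizontal axis, log2(scaled count + 1)); solid and dashed bars are medians of other genes and of members within each of 10 level bins, the top bin being drawn only to 15. The 10 members that rose lie at or below 2 on the log2 scale, and the dashed bars lie under the solid ones at low levels.

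Control embryos spread more widely than mutant embryos. The mean level over all members was 8.93 ± 0.23 (SD, n = 10) in Control and 8.65 ± 0.11 (SD, n = 9) in Padi6-mutant embryos. Per embryo, the median deviation of members from other genes of like level ran from -0.38 in Control 6 to 0.51 in Control 4, and from -0.22 to 0.06 in the mutant, so every mutant value lay within the Control range. Leaving out Control 4, the shift was -0.11, as it was without Control 5, each more than 1.5 times smaller than over all embryos. Single members varied about as much as other genes of like level: the median SD within a group was 0.73 in Control and 0.67 in mutant embryos, against 0.76 and 0.75.

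Falls were counted more often among members in which no KRAB box was found. The box was found by pattern in transcripts of 192 members, not found in 125, and 19 members matched no coding transcript. Throughout, members without a KRAB box are those in which the pattern found none. A box that departs from the pattern would be missed, so some of them may carry one. Of the KRAB members 6 rose and 15 fell (7.81%), with a median log2 fold change of -0.18 and a shift of -0.06 against like level. Of those without a KRAB box 2 rose and 27 fell (21.6%), with a median of -0.39 and a shift of -0.31. Against genes of like level and like transcript length the shifts were 0.03 for KRAB members and -0.20 for those without the box. The share of falls over all genes, 12%, lay between these, and both groups had a smaller share of rises than the 14.6% of all genes. The shift of the KRAB members was -0.17 without Control 6 and -0.01 without Control 4. Without Control 1 the falls among members without a KRAB box numbered 17, and without Control 9 their rises numbered 4. Calls over all genes moved the same way, to 21.4% without Control 1 and 30.3% without Control 9, from 26.6% over all embryos. The difference between the 2 groups of members was not tested.

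Across embryos the KRAB members spread widely in Control. Their deviation from genes of like level was -0.67 in Control 6, -0.31 in Control 7, 0.49 in Control 5, 0.52 in Control 8 and 0.59 in Control 4, giving an SD of 0.39, and the SD was 0.16 over the mutant embryos. The members without a KRAB box behaved otherwise: 0.01 to 0.29 in Control (mean 0.16 ± 0.09, SD, n = 10) and -0.24 to -0.07 in mutant embryos (mean -0.15 ± 0.06, SD, n = 9). These ranges did not overlap. By number of fingers, of members without a KRAB box, 11 of 39 with 10 or more fingers and 16 of 86 with fewer fell, and of KRAB members 8 of 146 and 7 of 46 did. These shares are 28.2%, 18.6%, 5.48% and 15.2%, beside 12% of all genes.

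**Figure D2:**
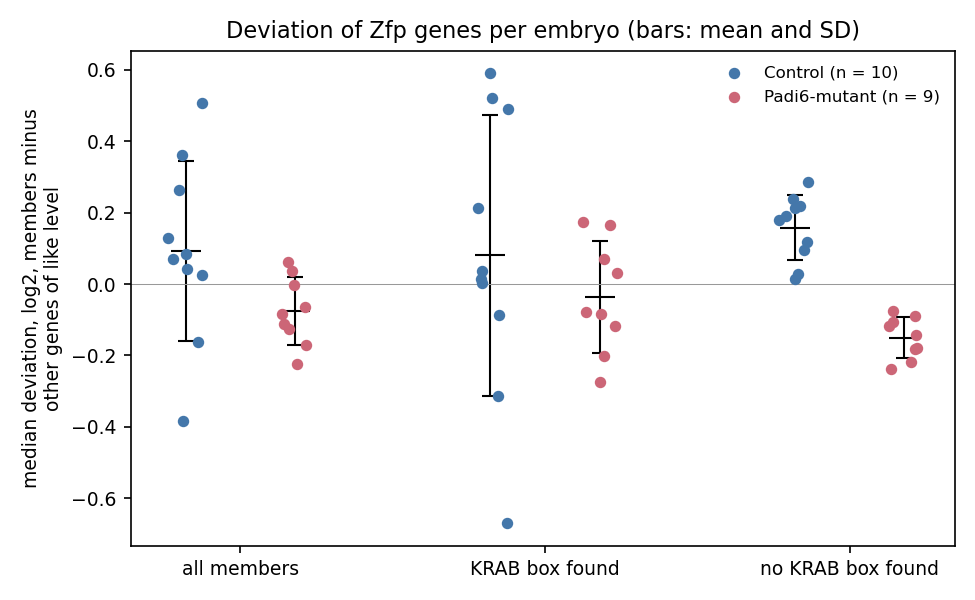
Median deviation of Zfp genes from other genes of like level in each embryo (vertical axis, log2 units), for all members, those with a KRAB box and those without; points are embryos, bars the mean and SD. KRAB members range from -0.67 to 0.59 over Control embryos, and for members without the box all 10 Control embryos lie above all 9 mutant embryos.

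GC content differed between these groups of members and moved with the change. The transcripts used had a median GC content of 40.8% in KRAB members and 50.7% in members without the box, with 49.8% over all genes. All genes were divided into 5 equal bins of GC content. In the lowest bin 9 of 158 members fell (5.70%), then 5 of 47, 7 of 42 and 9 of 33, and in the highest bin 13 of 41 fell (31.7%). Of other genes, 4.65% fell in the lowest bin and 17.8% in the highest, so that the share grew with GC content in both. Against genes of like level and like GC content the shift was -0.21 for KRAB members, -0.26 for those without the box and -0.22 for all members with a transcript. After a trend on transcript length and GC content was removed from every library, 7 KRAB members rose and 16 fell, and 6 members without the box rose and 11 fell. Then 3.65% and 4.80% of the groups rose, below the 10.6% of all genes, and 8.33% and 8.80% fell, near the 10.2% of all genes. After the trend was removed the shifts against like level were -0.15 and -0.19, so the gap between the groups was smaller under both treatments of GC content.

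Few Zfp transcripts are short. Of 321 members with a transcript only 10 were in the shortest of 5 equal bins of length, where none was called and 44.5% of other genes were higher in the mutant. In the other 4 bins 2.99%, 2.13%, 3.61% and 1.49% of members rose, beside 11.4%, 6.95%, 5.99% and 2.61% of other genes. Rises were thus below the share of other genes in all 5 bins, and these shares rest on 3 or fewer members each. Of the 10 rises, the 2 in members that matched no coding transcript were in no bin of length or GC content.

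**Figure D3:**
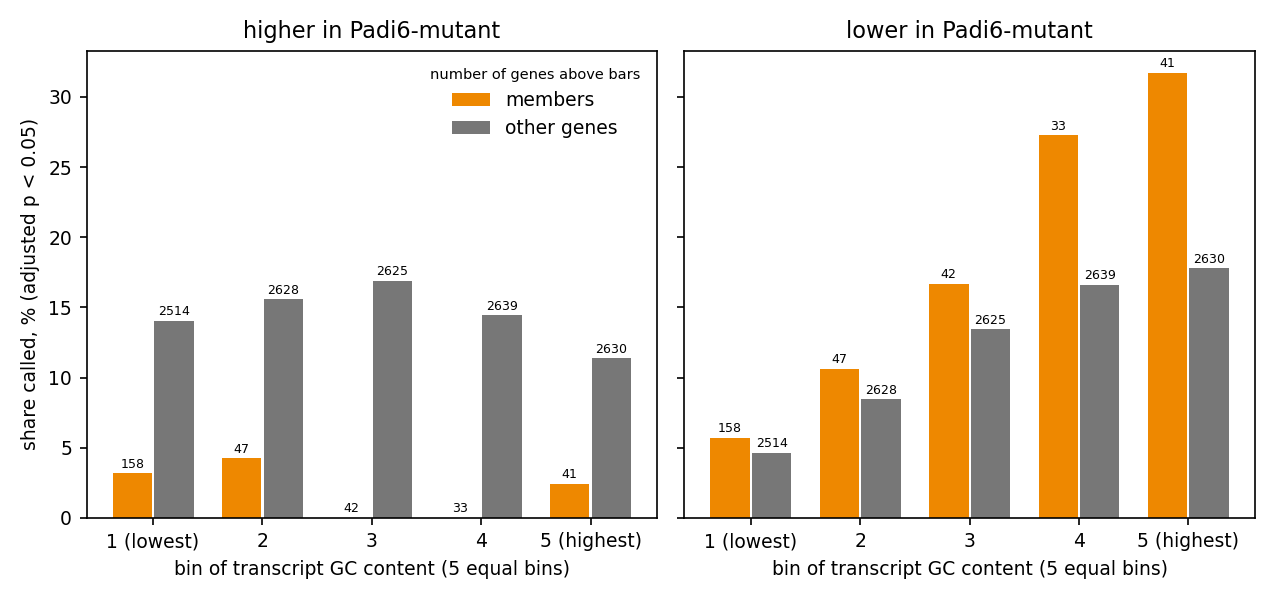
Share of genes called (vertical axis, %, adjusted p below 0.05) as higher (left) and lower (right) in Padi6-mutant embryos by bin of transcript GC content (horizontal axis, 5 equal bins), for Zfp genes and for other genes; numbers above the bars count genes. The share of members that fell goes from 5.70% in the lowest bin to 31.7% in the highest.

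Chromosome 7 holds the most members and 14 of the 43 falls. Of 76 members on it none rose and 14 fell, against 1 and 2 of 43 on chromosome 17, 1 and 1 of 31 on chromosome 13, 1 and 4 of 26 on chromosome 4, and 0 and 5 of 20 on chromosome 8. The falls on chromosome 7 were 18.4% of its members, beside 12% of all genes that fell and 14.6% that rose. Of 319 members placed in RefSeq gene order, 125 lay in 11 clusters of 6 or more with at most 5 protein-coding genes between neighbours. Within clusters 1 member rose and 10 fell (8%), and outside them 7 of 194 rose and 31 fell (16%), so the 12% of all genes lay between them. The chromosome 4 cluster from Zfp990 to Zfp933 has near-identical copies. Of the 16 members placed in it 3 fell and none rose. Zfp268, which rose, and Zfp986, which fell, stand between Zfp990 and Zfp933 in the order of the deposited list. They were not among the 16 placed, so these counts may miss members of the cluster. Reads of 62 of 321 members are uncertain, since over 10% of their 75-base windows also occur in transcripts of another gene. Of these 62, 5 were called, beside 15.8% of all members and 26.6% of all genes.

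Zfp949 had the smallest adjusted p of the members and rose 3.32-fold. It encodes a KRAB protein with 11 fingers by the pattern used. Control embryos had 9.05 to 10.4 with a median of 9.79, and mutant embryos 11.1 to 11.9 with a median of 11.7. Every mutant embryo was above every Control embryo, which held for no other member in this direction and for 2.67% of all genes, and no member had all mutant embryos below all Control embryos (0.289% of genes). The log2 fold change was 1.73 (SE 0.18, adjusted p = 2.74e-07, limma).

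Zfp938 and Zfp9, both with a KRAB box, had larger but more spread rises. Zfp938 had 6.85 to 9.83 (median 7.92) in Control and 9.24 to 10.7 (median 10.4) in mutant embryos, a log2 change of 1.99 (SE 0.35, adjusted p = 1.90e-04, limma). Zfp9 had 6.75 to 9.96 (median 8.73) and 9.65 to 10.9 (median 10.4), a log2 change of 1.77 (SE 0.30, adjusted p = 1.58e-04). The groups overlapped for both, with 6 and 8 of 9 mutant embryos above the highest Control embryo.

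Zfp691 has 7 fingers and no KRAB box by the pattern used. It ran from 5.09 to 8.15 (median 6.49) in Control and from 7.35 to 8.60 (median 8.07) in mutant embryos. Its log2 change was 1.49 (SE 0.41, adjusted p = 0.00882, limma). All 9 mutant embryos were above the Control median, and 3 were above the highest Control embryo. Zfp367 rose by less, 0.76 (SE 0.17, adjusted p = 0.00217), from 8.99 to 9.77 in Control to 9.73 to 10.6, with 8 of 9 mutant embryos above every Control embryo. The other 5 rises were Zfp950 (1.09), Zfp560 (1.05), Zfp1006 (0.90), Zfp268 (0.76) and Zfp944 (0.68), with adjusted p from 0.00612 to 0.0484.

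Some of these rises rested on which embryos were included. The call of Zfp944 held only without Control 5, Control 9 or Padi6-mutant 9, and was lost on leaving out any other of the 19 libraries. That of Zfp560 was lost without any 1 of Control 1, 2, 3, 6 and 10 and Padi6-mutant 2, 3, 4, 5 and 9 (adjusted p up to 0.0800), and that of Zfp1006 without Control 2, Padi6-mutant 6 or Padi6-mutant 7. With the number of genes above 0 as a covariate the calls of Zfp950, Zfp1006, Zfp367, Zfp268 and Zfp944 ended, as they did without the 4 mutant libraries with over 400 genes at 0 (Padi6-mutant 6, 8, 9 and 10). Zfp938, Zfp9, Zfp949 and Zfp691 kept their call in every alternative run.

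The largest falls among the better-expressed members (mean above the lower quartile of all genes) were in Zfp623, Zfp239 and Zfp219. No KRAB box was found in these by the pattern used. Zfp623 had 6.51 to 8.93 (median 8.45) in Control and 3.58 to 8.04 (median 6.82) in mutant embryos, a log2 change of -1.84 (SE 0.55, adjusted p = 0.0165, limma). In mutant embryos 4 of its values lay below every Control embryo, and none lay above the Control median.

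Zfp219, a partner of Sox9 in cartilage, ran from 8.12 to 10.3 (median 9.21) in Control and from 6.23 to 8.84 (median 7.73) in mutant embryos. Its log2 fold change was -1.63 (SE 0.35, adjusted p = 0.00154, limma), and 7 of 9 mutant embryos were below the lowest Control embryo. Zfp239, also known as Mok2, ran from 8.66 to 10.4 (median 9.64) and from 3.17 to 10.2 (median 8.29), with a log2 change of -1.71 (SE 0.61, adjusted p = 0.0397). Padi6-mutant 10 alone had 3.17, and without it the log2 fold change was -1.11 (adjusted p = 0.0322). The Zfp239 call was lost on leaving out any 1 of Control 1, 2, 3, 4, 5, 7 and 10 and Padi6-mutant 2, 4, 7 and 9 (adjusted p up to 0.0641).

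Zfp820 and Zfp646 fell less but more evenly. Zfp820, a KRAB gene with 12 fingers, had 10.0 to 11.5 in Control and 8.13 to 10.5 in mutant embryos (log2 fold change -1.31, SE 0.26, adjusted p = 7.48e-04, limma), with 8 of 9 mutant embryos below every Control embryo. Zfp646, with 27 fingers and no KRAB box by the pattern used, had 9.81 to 11.2 and 8.47 to 10.5 (-1.16, SE 0.25, adjusted p = 0.00159, limma), with 7 of 9 below. Both, with Zfp219, kept their call in every alternative run.

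The other named falls were Zfp12 (-1.43), Zfp264 (-1.41), Zfp775 (-1.31), Zfp534 (-1.20), Zfp747 (-1.20), Zfp105 (-1.20) and Zfp583 (-1.16), with adjusted p from 0.00364 to 0.0378. All 9 mutant embryos were below the Control median for each of these but Zfp12, where 8 were. Of the windows of Zfp534 53.6% occur in another gene's transcripts, and of Zfp747 21.4%, so these values may include reads of copies. The call of Zfp12 was lost without any 1 of Control 2 and 3 and Padi6-mutant 5, 6, 8 and 10. That of Zfp775 was lost without any 1 of Control 1, 2 and 3 and Padi6-mutant 6 and 10. That of Zfp747 was lost without any 1 of Control 1, 2, 3, 6, 7, 8 and 10 and Padi6-mutant 2, 6, 7, 8 and 9 (adjusted p up to 0.0758). With the covariate the calls of Zfp239, Zfp12, Zfp264, Zfp775, Zfp747, Zfp105 and Zfp583 ended, and without the 4 libraries named above those of Zfp12, Zfp775, Zfp534, Zfp747, Zfp105 and Zfp583. With the length and GC trend removed those of Zfp239, Zfp12, Zfp775 and Zfp747 ended.

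**Figure D4:**
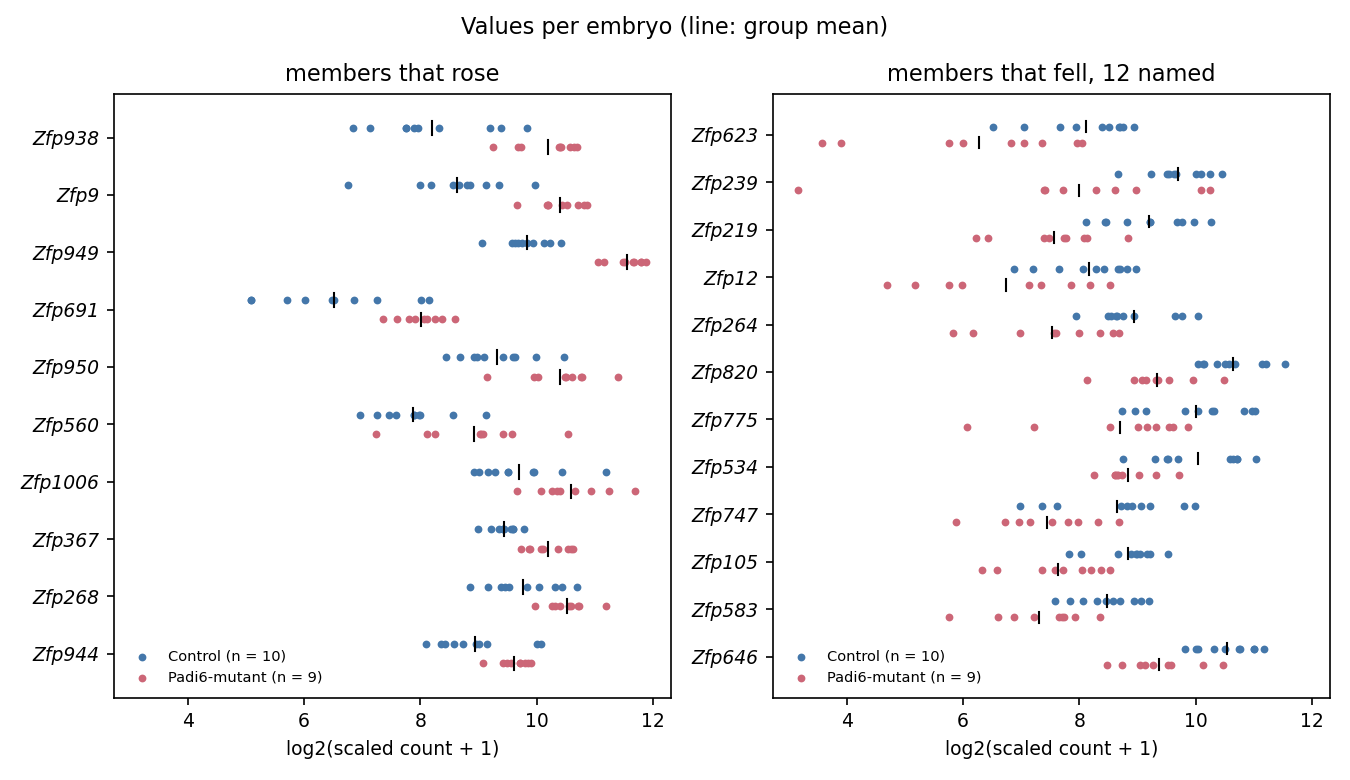
Value of each embryo (horizontal axis, log2(scaled count + 1)) for the 10 members that rose (left) and 12 members that fell (right), with Control in blue, Padi6-mutant in red and the group mean as a line. Zfp949 alone shows no overlap between the groups, and 1 mutant embryo of Zfp239 stands at 3.17.

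Several falls outside that rule were singled out after their values were seen. Zfp358, a low gene, was at 0 in 7 of 9 mutant embryos and at 3.70 and 5.32 in the other 2, whereas Control embryos had 1.00 to 7.22 (median 5.93). Its log2 fold change of -4.19 (SE 0.97, adjusted p = 0.00265, limma) depends on the pseudocount. The other called members of low level that fell by more than 1.9 were Zfp882 (-2.52), Zfp986 (-2.49, with 77.4% of windows shared), Zfp324 (-2.48) and Zfp341 (-1.92).

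Zfp280b had the smallest adjusted p of the falls. It ran from 11.4 to 12.4 (median 11.9) in Control and from 10.9 to 11.5 (median 11.0) in mutant embryos, with a log2 change of -0.77 (SE 0.14, adjusted p = 2.59e-04, limma), and 8 of 9 mutant embryos were below every Control embryo. Zfp410, known as an activator of Chd4, ran from 10.9 to 11.8 and from 9.95 to 11.3, with a log2 change of -0.69 (SE 0.17, adjusted p = 0.00445). Zfp592 (-0.78) and Zfp687 (-0.80) fell, and the related Zfp532 had 0.18 (adjusted p = 0.584); the proteins of Zfp592 and Zfp687 are partners in one chromatin-bound complex. Zfp410, Zfp592 and Zfp687 lost their call with the covariate, and Zfp592 and Zfp687 with the length and GC trend removed. The call of Zfp687 was also lost without any 1 of Control 1, 2, 3 and 6 and Padi6-mutant 2, 6 and 7.

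Of the 5 members with the most scaled counts, 1 was called, beside 26.6% of all genes. Zfp106, an RNA-binding protein needed in motor neurons and muscle, fell from 14.2 to 14.9 (median 14.4) in Control to 13.7 to 14.3 (median 13.9), with a log2 change of -0.53 (SE 0.13, adjusted p = 0.00320, limma), and 7 of 9 mutant embryos were below every Control embryo. Zfp706, found in screens for factors of exit from pluripotency, ran from 13.4 to 14.2 and from 13.5 to 14.9, with a log2 change of 0.42 (adjusted p = 0.0658). With the length and GC trend removed its value was -1.11 (adjusted p = 1.98e-05) and Zfp106 was no longer called (-0.34, adjusted p = 0.0540). Of the windows of Zfp706 26.3% occur in other transcripts. Zfp207 had -0.18, Zfp568 -0.36 and Zfp985 -0.65, none of them called over all embryos with the deposited values. With quantile normalization all 3 were called (Zfp207 -0.37, adjusted p = 0.0486, Zfp568 -0.44, adjusted p = 0.0444, Zfp985 -0.72, adjusted p = 0.0311, limma). Zfp985 was also called with a pseudocount of 16 (adjusted p = 0.0478), among genes above the median level (adjusted p = 0.0412) and with the trend removed (adjusted p = 0.0489). With library quality weights Zfp207 (-0.31, adjusted p = 0.0430) and Zfp706 (0.47, adjusted p = 0.00977) were called. Calls appeared for Zfp706 without Control 5, Control 9, Padi6-mutant 7 or Padi6-mutant 9, for Zfp568 without Control 9 or Padi6-mutant 10, and for Zfp985 without any 1 of Control 1 and 6 and Padi6-mutant 2, 3, 4 and 9.

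Of 15 listed members chosen for a known role, Zfp296 and Zfp335 passed the test and both fell. Over all genes 26.6% were called and 12% fell, so these calls are no more than the background. Zfp296, a regulator of pluripotency and heterochromatin, had 10.2 to 12.8 (median 11.7) in Control and 9.67 to 11.7 (median 10.7) in mutant embryos, a log2 change of -0.94 (SE 0.34, adjusted p = 0.0447, limma). All 9 mutant embryos were below the Control median, though the call was lost without any 1 of Control 1, 2, 3, 5, 6, 7 and 10 and Padi6-mutant 2, 6, 7, 9 and 10. Zfp335, a part of a histone H3K4 methyltransferase complex, had 9.56 to 11.5 (median 10.7) and 8.95 to 10.5 (median 9.74), a log2 change of -0.84 (SE 0.26, adjusted p = 0.0189). Neither was called with the covariate or without the 4 libraries with over 400 genes at 0, and Zfp335 not with the length and GC trend removed (-0.30, adjusted p = 0.280).

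Zfp809, Zfp568, Zfp462 and Zfp644, which act in silencing, were not called over all embryos with the deposited values, but only Zfp644 was called in no alternative. Zfp809, which starts the silencing of proviruses, had a log2 change of -0.31 (adjusted p = 0.259), and Zfp568, which silences a placental transcript of Igf2, ran from 12.3 to 13.4 and from 12.1 to 13.0 (-0.36, adjusted p = 0.0857). Zfp462, which works with H3K9 methyltransferases against lineage genes, had 5.17 to 8.75 in Control and 1.00 to 7.91 in mutant embryos (-1.82, adjusted p = 0.0755), and Zfp644, a partner of the G9a complex, had -0.26 (adjusted p = 0.522), with values of -0.48 to -0.14 on leaving out each library, moving by more than 1.5 times without any 1 of Control 4, 6 and 8. Zfp809 was called with the length and GC trend removed (-0.64, adjusted p = 0.0316), without the 4 libraries (-0.60, adjusted p = 0.0339) and with quality weights (-0.50, adjusted p = 0.0256). Besides quantile normalization, Zfp568 was called with the covariate (-0.55, adjusted p = 0.0457), without the 4 libraries (-0.57, adjusted p = 0.0285) and with quality weights (-0.48, adjusted p = 0.00658). Each of these calls was a fall. Without Padi6-mutant 2 Zfp462 was called (-2.15, adjusted p = 0.0396).

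Zfp281, which acts in the passage from naive to primed pluripotency, ran from 10.1 to 11.8 (median 11.4) and from 10.1 to 11.3 (median 10.6), a log2 change of -0.48 (adjusted p = 0.0863). Without Control 6 it was called (-0.60, adjusted p = 0.0210), as it was with quality weights (-0.53, adjusted p = 0.0283). The promoter-binding factor Zfp143 had -0.21 (-0.14 without Control 1 and -0.12 without Padi6-mutant 2) and the GC-rich binding factor Zfp148 had -0.04, with values of 0.0564 without Control 8 and 0.0439 without Padi6-mutant 3. Zfp217, a partner of the CoREST corepressor, had -0.37 (adjusted p = 0.153), and it was called without Padi6-mutant 6 (-0.48, adjusted p = 0.0407) and with quality weights (-0.62, adjusted p = 0.00632).

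Among the members that work on RNA or protein, the mRNA-decay factor Zfp36 had 0.56 (adjusted p = 0.398), the ribosome-collision ligase Zfp598 -0.08 (adjusted p = 0.773), the ribosome assembly factor Zfp622 -0.25 (adjusted p = 0.355) and the ubiquitin ligase Zfp91 0.54 (adjusted p = 0.113). Zfp598 had 0.42 with the length and GC trend removed. On leaving out each library Zfp36 ran from 0.31 (without Control 8) to 0.71, Zfp598 from -0.16 (without Control 5) to -0.02 (without Padi6-mutant 8) and Zfp622 from -0.36 to -0.15 (without Padi6-mutant 9). None of these 4 was called over all embryos with the deposited values, and Zfp91 was called with the trend removed (0.74, adjusted p = 0.0131). Their groups overlapped.

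Of 20 measured partners through which KRAB proteins silence chromatin, 3 rose and 6 fell, with a median log2 fold change of -0.32 beside -0.10 over all genes. The 3 rises are near the background of 14.6% of all genes, and the 6 falls stand beside 12%. The partners lay in level bins 6 to 10, where 12.4% to 22.9% of other genes rose and 15.5% to 18.1% fell. Trim28, which KRAB boxes bind, ran from 13.0 to 15.0 (median 14.1) in Control and from 12.4 to 13.6 (median 13.2) in mutant embryos, with a log2 change of -0.99 (SE 0.23, adjusted p = 0.00320, limma). Morc2a, an ATPase of the HUSH pathway, fell by 0.93 on the log2 scale (SE 0.16, adjusted p = 1.90e-04), with every mutant embryo below every Control embryo.

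Mphosph8, the HUSH subunit that reads H3K9me3, rose by 1.03 (SE 0.20, adjusted p = 4.54e-04, limma), with 7 of 9 mutant embryos above every Control embryo. The HP1 genes Cbx3 (0.76) and Cbx1 (0.37) rose, and Chd4 (-0.54), Atf7ip (-0.49), Hdac1 (-0.38) and Rbbp7 (-0.71) fell, with adjusted p from 0.0121 to 0.0479. Setdb1 had -0.21 (adjusted p = 0.337) and Cbx5 -0.24. Morc2a and Mphosph8 alone kept their call in every alternative run. The other 7 were not called with the covariate, without the 4 libraries or with the length and GC trend removed, and with the trend removed Cbx3 and Cbx1 were at -0.09 and -0.11, the opposite direction. Trim28 had -0.48 with the trend removed, -0.49 with the covariate and -0.68 without the 4 libraries, and kept its call on leaving out each library in turn, as Chd4 did. The call of Cbx3 was lost without any 1 of Control 1, 2, 6 and 7 and Padi6-mutant 2, 6 and 8, and that of Cbx1 held only without Control 3, 5 or 9 or Padi6-mutant 9. That of Atf7ip was lost without any 1 of Control 1, 2, 3, 4 and 8 and Padi6-mutant 3, 4, 5, 6 and 9. That of Hdac1 was lost without any 1 of Control 1, 2, 3, 4, 6 and 7 and Padi6-mutant 2, 3, 4, 5, 7, 8 and 9, and also with a pseudocount of 16, with centring on the median of all genes and with robust eBayes. That of Rbbp7 was lost without any 1 of Control 1, 2, 3, 5, 6 and 10 and Padi6-mutant 2, 4, 6, 7 and 9, and that of Cbx1 also with quantile normalization. Without Control 1 or Control 2 alone 4 of the 20 were called, beside 21.4% and 22.1% of all genes. Without Padi6-mutant 2, 4 or 6 alone 5 were, beside 23.5%, 23.7% and 25.4% of all genes, so these counts are near the background.

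Rises and falls were also counted in other zinc-finger families. Of 34 Zbtb genes 0 rose and 6 fell, of 17 Zscan and Zkscan genes 1 and 1, of 21 Klf and Sp genes 0 and 2, of 14 Zc3h genes 0 and 2, of 19 Zdhhc genes 0 and 3, and of 3 Zmynd genes 0 and 1. Their median log2 fold changes ran from -0.39 in Zdhhc to -0.05 in Zc3h, beside -0.26 for the Zfp genes. Over all genes 14.6% rose and 12% fell. The share of rises was below that in each of these families (5.88% in Zscan and Zkscan, 0 in the rest), as it was in the Zfp genes (2.98%). The families are small, and several of their counts of falls are near the background. The difference between families was not tested.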

How the data were processed

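Per the submitters' processing notes, trimming used Trim Galore 0.4.4, alignment used HISAT2 2.1.0, and the builds named are GRCm39 and mm39. The counting tool and annotation are not given in the sources used here. The authors deposited log2 values of scaled counts plus 1; the 75th percentile is the same in all 19 libraries, and values taken back from log2 lay within 1.96e-07 of whole numbers.

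Groups were compared on these log2 values with limma 3.58.1 in R 4.3.3 (lmFit, eBayes with a trend, two-sided, Benjamini-Hochberg over 14173 genes, threshold 0.05), after the code was tested on simulated data. Members and lists were chosen with earlier results of these data known. Named genes were up to 12 rises and 12 falls among called members whose mean exceeded the lower quartile of all genes, 5 members of highest level, members of known role (Zfp352 and Zfp708 not analysed here) and the 4 corepressors with the smallest adjusted p.

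Transcripts came from GENCODE M21 (GRCm38) and gave length and GC content for 13357 genes (94.2%). Where transcripts were marked as principal, the shortest of at least 300 nt was used. Genes without one were given their longest coding transcript, or their longest transcript where none was coding, so lengths went down to 58 nt. Lengths, GC content and the trend removed depend on this choice. Fingers and KRAB boxes were found by pattern in translations of coding transcripts. RefSeq proteins were not used here. The GC groups, clusters, shared windows, promoter motifs, 300 nt minimum and comparison by GC content were chosen after the values were seen.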

Additional observations from a re-analysis of the deposited data

Results flagged for a closer look

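In 106 groups of values tested, those of the named members, Dixon's criterion marked 3 groups with 1 library far from the rest; chance gives about 1 in 20. Zfp239 was at 3.17 in Padi6-mutant 10, while the other 8 mutant embryos had 7.38 to 10.2. Zfp644 was at 8.32 in Control 6, while the other Control embryos had 10.0 to 11.4, and without Control 6 its log2 fold change was -0.48 (adjusted p = 0.0874, limma). Zfp217 was at 12.1 in Padi6-mutant 6, while the other mutant embryos had 10.8 to 11.4, and without that library the log2 fold change was -0.48 (adjusted p = 0.0407, limma).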

How the results depend on the processing

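All 53 called members kept their direction in every alternative run, 34 kept their call on leaving out each library in turn, and 9 kept it throughout (Zfp938, Zfp9, Zfp949, Zfp691, Zfp219, Zfp820, Zfp646, Zfp280b, Zfp229). With the number of genes above 0 as a covariate, 1807 genes (12.7%), 20 members (5.95%; 5 higher, 15 lower) and 2 corepressor partners were called. Without Padi6-mutant 6, 8, 9 and 10, which have over 400 genes at 0, 28 members (8.33%, with 18.5% of all genes; 21 lower) and 2 corepressor partners were. Library quality weights gave 88 members (26.2%, with 37.7% of all genes; 25 higher). Zfp532, at 0.18 over all embryos, was at -0.26 with the covariate and -0.13 without those 4 libraries. With the length and GC trend removed 5 corepressor partners were called, beside 20.8% of all genes, and Zfp706 was at -1.11 and Zfp598 at 0.42. Among genes above the median level the shift of KRAB members was 0.0870.

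The replicate numbers did not pair the embryos: 1 of 9 same-number correlations was over 0.1 (-0.072 to 0.152), and 1 was the best for its own number. With the replicate block 29 members (8.63%, with 17.8% of all genes; 6 higher, 23 lower) and 3 corepressor partners were called, and Zfp985 was (-0.76, adjusted p = 0.0341, limma).

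Leaving out each library in turn gave 3035 to 4288 genes, 40 to 64 members (7 to 15 higher, 32 to 49 lower), 4 to 10 corepressor partners, a shift of -0.23 to -0.11, a member median of -0.34 to -0.22, and Zfp148 at -0.118 to 0.0564. The cause of these changes was not tested. The median log2 fold change of the members stayed between -0.27 and -0.20 in the other alternatives, and their shift between -0.24 and -0.04.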
